A study of Mus musculus with 5 samples.

Results

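Interferon-stimulated genes outside the guanylate-binding protein (GBP) family were examined in mouse bone marrow-cultured mast cells. The set holds 39 named genes, antiviral effectors, interferon-inducible GTPases, signalling factors and RNA sensors, matched by symbol in a deposited table of 25549 gene models. All 39 were found, and 30 of them carry a p-value. The samples were 3 of the genotype Cpa3-Cre;miR-9∆fl/∆fl, called the miR-9 line here, and 2 of the genotype Cpa3-Cre. In both genotypes Cre is driven by the promoter of Cpa3, which encodes a mast cell carboxypeptidase, and the labels do not say whether recombination at the miR-9∆fl allele raises or removes the microRNA miR-9. All mice were C57BL/6, matched for age and sex per the design text, which gives no age. The untreated cells had grown for 6 to 8 weeks with 50 ng/mL interleukin-3, and ribosome-depleted total RNA was read as strand-marked pairs of 50 bases. All 5 samples are listed with 40 units of heparinase. Separate mice or cultures are not stated for the samples of a genotype, so each p-value reflects a spread between samples that may be technical.

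Type I interferons bind the receptor chains IFNAR1 and IFNAR2, whose kinases JAK1 and TYK2 activate transcription factors that include STAT2. STAT2 and IRF9 belong to a complex that binds the interferon-stimulated response element (ISRE) in promoters. Interferon gamma acts through gamma-activated sequences (GAS), with IRF1 as an early target. The induced proteins block viral entry, translation and replication, or attack vacuoles that hold microbes, and many are kept at a low level by steady interferon signalling without infection.

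Across the set, 1 member of the 30 with a p-value fell, none rose and 29 did not pass. Apol9b was that gene. The test was the authors' deposited p-value with Benjamini-Hochberg adjustment over all 24071 genes that have one, at an adjusted p under 0.05, and by this rule 0.411 percent of all genes were called (0.166 percent lower and 0.245 percent higher). At an unadjusted p under 0.05 the authors' deposited table held 3 lower members (Apol9b, Usp18, Parp14) and 1 higher (Ifitm1), or 13.3 percent of the 30. The background was 7.92 percent of all genes (4.05 percent lower and 3.87 percent higher). Of the 30, 29 are of protein-coding class. Among protein-coding genes 9.82 percent had an unadjusted p under 0.05 and 0.552 percent were called. The median log2 fold change of the 30 was -0.16 per the authors' deposited table, and that of all tested genes was -0.09. Negative values were held by 22 of the 30 members (73.3 percent) and by 59.8 percent of all tested genes per the authors' deposited table. Apol9b alone lay beyond 1 log2 unit in either direction, 3.33 percent of the members where 4.34 percent of all genes did. In bulk RNA of this kind, fewer cells of a type and less RNA per cell cannot be told apart. Values per sample and standard errors were not analysed here, so the agreement of samples within a genotype is known only through each p-value.

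**Figure D1:**
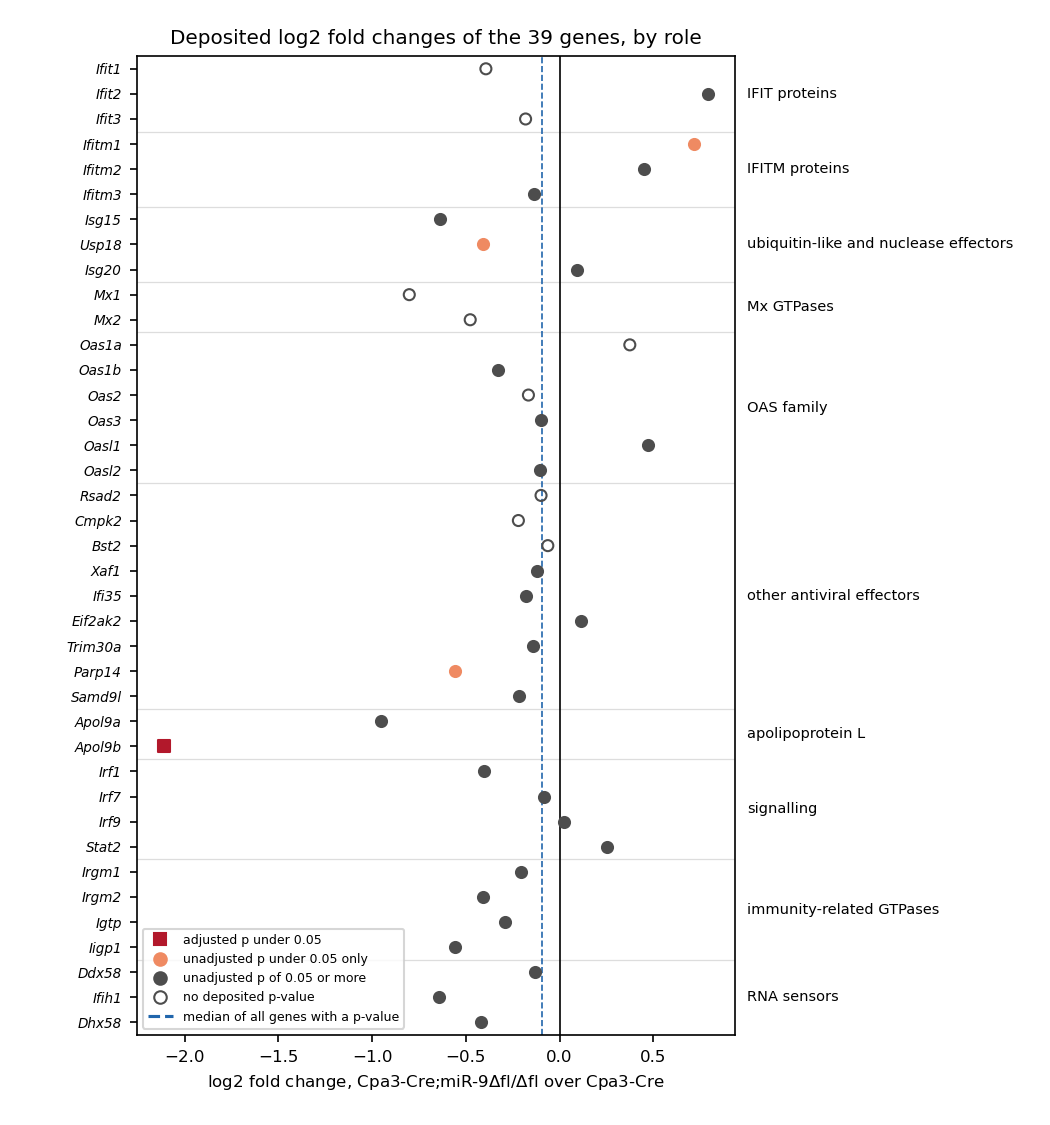
Deposited log2 fold change (x axis, the miR-9 line over Cpa3-Cre) of each of the 39 genes (y axis), ordered by role. Filled symbols have a deposited p-value and open circles have none; Apol9b, the red square at -2.11, stands apart from the other members, which lie between -0.95 and 0.79.

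**Figure D2:**
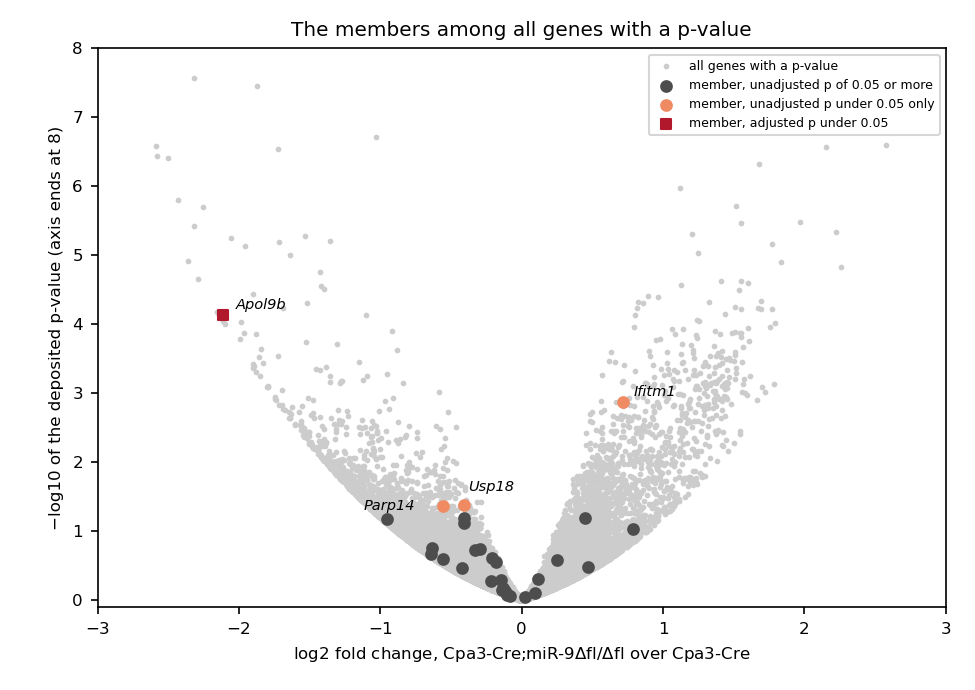
Deposited log2 fold change (x axis) and −log10 of the deposited p-value (y axis, a log scale that ends at 8) for all genes with a p-value in grey and the 30 members with one in dark grey, orange or red; 5 genes lie outside the axes. Most members sit low in the cloud of all genes, with Apol9b and Ifitm1 above the rest.

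A p-value was missing for 9 of the 39 members (23.1 percent), where 1478 of all 25549 gene models (5.78 percent) lacked one per the authors' deposited table. They were Ifit1, Ifit3, Mx1, Mx2, Oas1a, Oas2, Rsad2, Cmpk2 and Bst2, among them several of the most used markers of interferon exposure. Their log2 fold changes per the authors' deposited table ran from -0.80 to 0.37, with 8 of 9 negative. Of all 1478 gene models without a p-value, 1115 had a negative value. The sources used here do not give the reason for an empty p-value, and no call is possible for these genes.

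Motifs that interferon-activated factors bind were looked for in RefSeq promoter windows (GRCm38.p6) of 250 bases before and 50 after the start, which were matched by symbol for 31 members. The ISRE core was searched as GAAA followed, after any 2 bases, by another GAAA, and the GAS core as TTC followed, after any 3 bases, by GAA, both on either strand. An ISRE core was present for 19 of 31 members (61.3 percent) and for 3.99 percent of the 27025 genes with a window. A GAS core was present for 10 of 31 members (32.3 percent) and for 9.55 percent of all genes. Matches of the 2 motifs overlapped each other in 2 members, and a match is a description of letters, not a measured binding site. The stretches below end before the RefSeq start and are shown for the called gene and its closest relative, for a gene with a run of ISRE cores, for a gene with a GAS core alone, for a pair of neighbouring GTPase genes that hold both cores side by side, and for a member with a positive value. Capitals mark the motif matches, and each runs 5′ to 3′ on the gene's strand.
Apol9b, chr15:77729015-77729070, plus strand: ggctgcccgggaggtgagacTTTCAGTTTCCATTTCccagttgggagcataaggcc
Apol9a, chr15:77411104-77411159, minus strand: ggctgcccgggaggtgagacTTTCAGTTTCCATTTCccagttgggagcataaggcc
Isg15, chr4:156200855-156200916, minus strand: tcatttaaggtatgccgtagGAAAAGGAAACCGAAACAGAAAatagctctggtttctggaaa
Irf1, chr11:53769904-53769952, plus strand: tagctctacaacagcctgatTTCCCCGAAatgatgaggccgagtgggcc
Irgm2, chr11:58214882-58214942, plus strand: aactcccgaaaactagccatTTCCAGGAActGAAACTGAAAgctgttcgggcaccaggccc
Igtp, chr11:58199491-58199551, plus strand: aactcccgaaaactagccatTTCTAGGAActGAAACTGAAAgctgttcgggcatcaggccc
Ifitm2, chr7:140955978-140956027, minus strand: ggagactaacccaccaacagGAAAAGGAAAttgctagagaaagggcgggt

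Fold changes of members with and without each core overlapped in part. The 14 members with an ISRE core and a p-value had a median log2 fold change of -0.18 and ran from -2.11 to 0.45 per the authors' deposited table. The 11 without an ISRE core had a median of -0.08 and ran from -0.40 to 0.79 per the authors' deposited table. Those with a GAS core (8 members, median -0.16) and without it (17 members, median -0.12) lay close together per the authors' deposited table. These medians are descriptions with no test. Among all genes of the table, the 495 with an ISRE core and a p-value had a median of -0.12 per the authors' deposited table. Of the 64 called genes that have a promoter window, 6 held an ISRE core (9.38 percent), where 495 of the 13297 genes with a window and a p-value did (3.72 percent). The 6 were Apol9b, Gbp2, Gbp3 and Gbp5, which were lower in the miR-9 line, and Acsbg1 and Cdca3, which were higher.

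**Figure D3:**
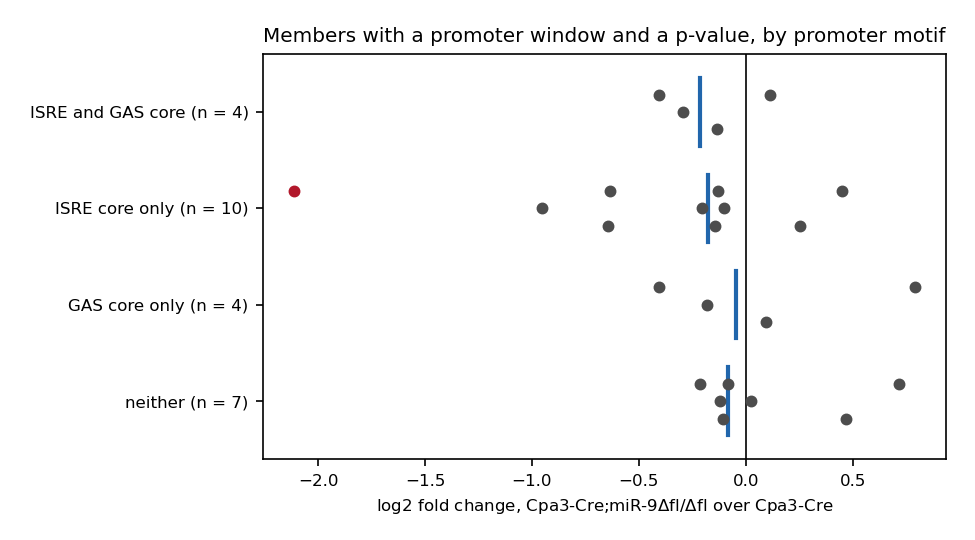
Deposited log2 fold change (x axis, the miR-9 line over Cpa3-Cre) of members with a promoter window and a p-value, in rows by the motif cores found in the window; points are genes, shifted vertically for legibility, and blue bars are medians. All 4 rows hold both negative and positive values, and Apol9b (red, ISRE core only) lies alone at -2.11.

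Apol9b and Apol9a, apolipoprotein L genes that interferon induces in the mouse, had the lowest values of the members with a p-value. Apol9b fell by 2.11 on the log2 scale per the authors' deposited table, or 4.32-fold lower in the miR-9 line (p = 7.35e-05, Benjamini-Hochberg adjusted p = 0.0268). Its p-value ranked 66 among the 24071, and its log2 fold change per the authors' deposited table lay at percentile 0.0582 of all genes. Apol9a stood at -0.95 per the authors' deposited table and did not pass (1.94-fold lower, p = 0.0661, adjusted p = 0.679). Whether the genes differ from each other in response was not tested. Both have 3 exon blocks on chromosome 15, Apol9a from 77403789 to 77411080 on the minus strand and Apol9b from 77729121 to 77736381 on the plus strand (GRCm38).

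Their sequences are close enough for reads to be shared. The promoter windows of Apol9a and Apol9b share an identical run of 273 bases, which includes the ISRE cores printed above. Of all stretches of 50 bases, the read length, in the longest Apol9b transcript, 51.4 percent also occur in transcripts of Apol9a, and 57.5 percent of those of Apol9a occur in Apol9b. How the authors treated reads that match both is not stated in the sources used here, so the split of signal between this pair is uncertain.

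The other apolipoprotein L genes, taken after the values were seen, surround the pair on chromosome 15. All 10 Apol genes had a p-value and a negative log2 fold change per the authors' deposited table, where 59.8 percent of all tested genes were negative. The median of the 10 was -0.47, or -0.42 without Apol9b, per the authors' deposited table. Apol10b stood at -1.07 (p = 0.0314, adjusted p = 0.540) and Apol10a at -0.90 (p = 0.0769) per the authors' deposited table, and neither passed. Apol8, which starts 18.7 kb beyond the start of Apol9b, stood at -0.18 per the authors' deposited table (p = 0.742), and Apol7e, which starts at -30.2 kb on the same scale, at -0.26 (p = 0.503). Apol9b was thus the 1 called gene of the 10, between neighbours whose values were smaller.

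**Figure D4:**
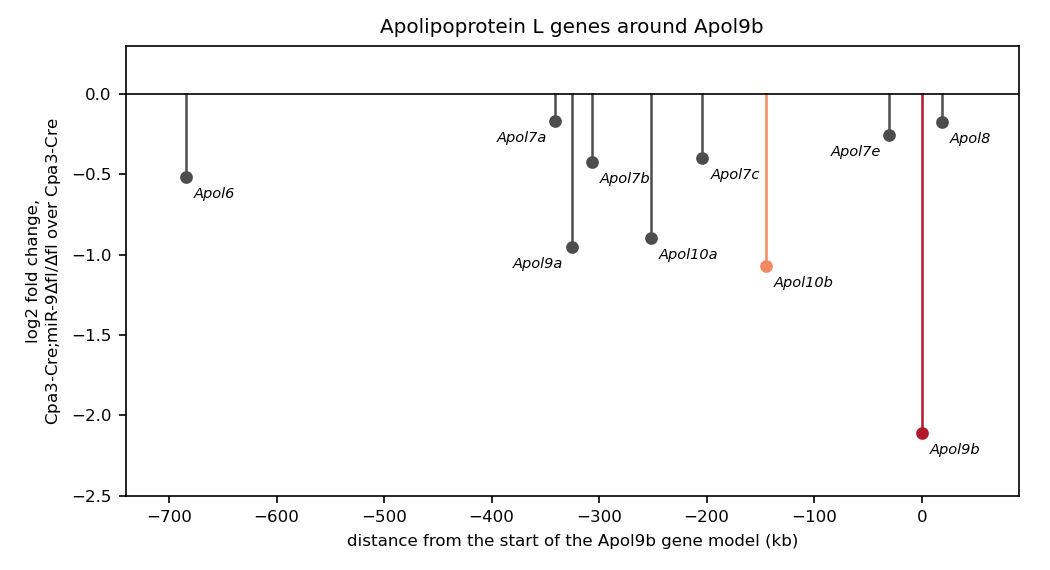
Deposited log2 fold change (y axis, the miR-9 line over Cpa3-Cre) of 10 apolipoprotein L genes against their distance from the start of the Apol9b gene model (x axis, kb). Red marks an adjusted p under 0.05, orange an unadjusted p under 0.05 only; all 10 values are negative and Apol9b at -2.11 is the 1 called.

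Because the genotypes differ at miR-9, the longest annotated 3′ UTR of each member was searched for the 7 bases that pair with the seed of the mature microRNA. The microRNA strands are shown with the seed, bases 2 to 8, in capitals (RefSeq, GRCm38.p6, Mir9-1 on chromosome 3).
mmu-miR-9-5p: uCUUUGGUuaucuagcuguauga
mmu-miR-9-3p: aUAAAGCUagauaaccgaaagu
The miR-9-5p site ACCAAAG was found in 3 of the 30 members with a p-value (10 percent), Apol9b, Eif2ak2 and Stat2, and in 2037 of 15449 genes with a p-value and an annotated 3′ UTR (13.2 percent). The miR-9-3p site AGCTTTA was found in 1 of these 30, Parp14 (3.33 percent, with 11.9 percent of all). None of the 9 members without a p-value held either site. The site of Apol9b lies at base 165 of a 3′ UTR of 444 bases, and its closest relative Apol9a has no such site. A relative's stretch was compared for Apol9b alone, the called gene. The stretch of Apol9a most like the site differs by a single substitution, C11T. It is counted from the 5′ end of the printed stretch with the Apol9b base first. Capitals mark the site and its counterpart.
Apol9b: gacgagagACCAAAGgatgtgct
Apol9a: gacgagagACTAAAGgatgtgct
Eif2ak2: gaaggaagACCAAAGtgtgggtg
Stat2: gaaggtgcACCAAAGagtcagaa
Of the 3 genes with a miR-9-5p site, Apol9b alone passed. It fell, while Eif2ak2 stood at 0.11 and Stat2 at 0.25 per the authors' deposited table, and neither passed. These are matches of letters, and pairing with miR-9 was not measured. Whether the site bears on the value of Apol9b was not tested, and the split of signal between Apol9b and Apol9a is uncertain.

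Among the genes that bar viruses from entering or being translated, the interferon-induced transmembrane (IFITM) genes had the members nearest to a rise. Ifitm1 stood at 0.72 per the authors' deposited table (1.64-fold higher, p = 0.00135) and missed the threshold with an adjusted p of 0.118. Its relative Ifitm2 stood at 0.45 (p = 0.0650, adjusted p = 0.677) and Ifitm3 at -0.14 (p = 0.711) per the authors' deposited table. All 3 encode membrane proteins that hinder fusion of viral and cell membranes, and they lie next to each other on chromosome 7. Of the stretches of 50 bases in Ifitm2, 48.5 percent also occur in transcripts of other genes, so its value is uncertain, while for Ifitm1 this share is 6.36 percent. The IFIT genes on chromosome 19 encode proteins that bind foreign RNA ends. Ifit2 had the highest value of all members, 0.79 per the authors' deposited table (1.73-fold higher, p = 0.0922, adjusted p = 0.724), and did not pass. Its neighbours Ifit1 (-0.39) and Ifit3 (-0.18) had no p-value per the authors' deposited table. In Ifit3, 51.2 percent of the stretches of 50 bases also occur in Ifit3b, which makes its value uncertain.

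The ubiquitin-like protein ISG15 and the protease that removes it from its targets both had negative values. Isg15 stood at -0.64 per the authors' deposited table (p = 0.172, adjusted p = 0.803). Usp18, which encodes that protease and also dampens signalling at the type I receptor, stood at -0.41 per the authors' deposited table (1.33-fold lower, p = 0.0418, adjusted p = 0.595). Isg20, for an exonuclease that degrades RNA, stood at 0.09 per the authors' deposited table (p = 0.794). None of the 3 passed.

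None of the genes of double-stranded RNA defence and none of the Mx genes was called. Some proteins of the OAS family, though not all, make the messenger that activates RNase L. Oas1b stood at -0.33 per the authors' deposited table (p = 0.184), Oas3 at -0.10 (p = 0.815), Oasl1 at 0.47 (p = 0.329) and Oasl2 at -0.11 (p = 0.842). Oas1a (0.37) and Oas2 (-0.17) had no p-value per the authors' deposited table, and 57.6 percent of the stretches of 50 bases in Oas1a also occur in Oas1g. Eif2ak2, which encodes the kinase PKR that halts translation, stood at 0.11 per the authors' deposited table (p = 0.489). Mx1 (-0.80) and Mx2 (-0.48), dynamin-like GTPase genes, had no p-value per the authors' deposited table. In C57BL/6 mice the Mx1 gene is known to be defective, and GENCODE M21 lists Mx2 and Oas1b as polymorphic pseudogenes.

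The RNA sensors of the cytosol all had negative values, as did 59.8 percent of all tested genes, and none passed. Ifih1, which encodes the sensor MDA5, stood at -0.64 per the authors' deposited table (p = 0.211, adjusted p = 0.830). Dhx58, for the regulator LGP2, stood at -0.42 per the authors' deposited table (p = 0.346), and Ddx58, for the sensor RIG-I, at -0.13 (p = 0.670).

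The remaining effectors gave 1 value with an unadjusted p under 0.05. Parp14, an ADP-ribosyltransferase gene, stood at -0.56 per the authors' deposited table (1.47-fold lower, p = 0.0424, adjusted p = 0.599). Samd9l, whose product restrains cell growth, stood at -0.21 per the authors' deposited table (p = 0.527), Ifi35 at -0.18 (p = 0.283), Trim30a, a ubiquitin ligase gene, at -0.14 (p = 0.506) and Xaf1, which promotes cell death, at -0.12 (p = 0.733). Rsad2 (viperin) and its neighbour Cmpk2, a nucleotide kinase gene, act on nucleotides, and Bst2 (tetherin) holds budding virus at the membrane. They had no p-value, with -0.10, -0.22 and -0.06 per the authors' deposited table.

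The immunity-related GTPases, which interferon gamma induces in the mouse and which act on vacuoles that hold microbes, had 4 negative values of 4, and none passed. Among all tested genes 59.8 percent were negative. Irgm2 stood at -0.41 per the authors' deposited table (1.33-fold lower, p = 0.0634, adjusted p = 0.673). Igtp, its neighbour on chromosome 11, stood at -0.29 per the authors' deposited table (p = 0.181), Irgm1 at -0.21 (p = 0.242) and Iigp1 at -0.56 (p = 0.251). The gene models of Irgm2 and Igtp share 162 exon bases on the same strand, so their values may not be independent. How reads on shared exons were counted is not stated in the sources used here. The GBP genes are another family of GTPases induced by interferon gamma, and 3 of the 10 with a p-value fell: Gbp2 (-1.72), Gbp3 (-1.87) and Gbp5 (-1.95) per the authors' deposited table. Of all genes tested, 0.166 percent fell by the same rule. Whether the families differ was not tested.

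The transcription factors of the response did not pass. Irf1 stood at -0.40 per the authors' deposited table (1.32-fold lower, p = 0.0771, adjusted p = 0.700). Stat2 (0.25, p = 0.257) and Irf9 (0.02, p = 0.893), partners in the complex that binds the ISRE, had positive values per the authors' deposited table. Irf7, which drives production of interferon alpha, stood at -0.08 per the authors' deposited table (p = 0.862). The exons of Irf9 overlap Rnf31 on the same strand by 123 bases, and those of Irf1 overlap the opposite-strand model Gm17334 by 135 bases.

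Many members lie close to another member. With gaps of at most 500 kb, 21 of the 39 lay in 8 clusters, which were set by distance alone. The cluster of Ifitm2, Ifitm1, Ifitm3 and Irf7 on chromosome 7 held values from -0.14 to 0.72 per the authors' deposited table, and that of Oas2, Oas3, Oas1b and Oas1a on chromosome 5 held values from -0.33 to 0.37. Both spanned 0, as did the pair of Oasl2 and Oasl1. On chromosome 5 the only positive value of the Oas2 to Oas1a cluster was that of Oas1a, which had no p-value. The Apol9, Mx, Igtp with Irgm2 and Rsad2 with Cmpk2 clusters held negative values alone. No member of the Mx and the Rsad2 with Cmpk2 clusters had a p-value. Of all tested genes 59.8 percent were negative, and whether clusters differ was not tested. The IFIT cluster on chromosome 19 ran from -0.39 to 0.79 per the authors' deposited table.

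Of 83 other genes of the interferon pathway, from ligands to further induced genes, 73 were in the table and 55 had a p-value. No gene of these rose or fell over all genes. The authors' deposited table held 6 lower and 1 higher at an unadjusted p under 0.05, or 12.7 percent of the 55. The background was the same 7.92 percent of all genes and 9.82 percent of protein-coding genes. The median of the 55 was -0.12 per the authors' deposited table. Of 9 interferon genes listed, only Ifnk had a row (-0.40 per the authors' deposited table, p = 0.395). The receptor genes Ifnar2 (-0.10), Ifngr1 (-0.19) and Ifngr2 (-0.19) had no p-value per the authors' deposited table, and Ifnar1 stood at 0.04 (p = 0.895).

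None of the receptor kinases passed. Jak1 stood at -0.03 (p = 0.883), Jak2 at -0.13 (p = 0.672) and Tyk2 at 0.25 (p = 0.191) per the authors' deposited table. Irf3, which is activated by the RNA sensors, stood at -0.15 per the authors' deposited table (p = 0.492). Tlr9, the sensor of unmethylated DNA, stood at -1.12 per the authors' deposited table (p = 0.0382, adjusted p = 0.580). Of 6 negative regulators of the pathway, none passed and 2 had an unadjusted p under 0.05 (33.3 percent). Both encode feedback inhibitors of cytokine signalling. The share at that p was 7.92 percent of all genes and 9.82 percent of protein-coding genes. Socs1 stood at -0.61 (p = 0.0108, adjusted p = 0.353) and Socs3 at -0.55 (p = 0.0370, adjusted p = 0.573) per the authors' deposited table.

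Of the 28 further induced genes with a p-value, 20 had a negative log2 fold change per the authors' deposited table (71.4 percent, where 59.8 percent of all genes did). At an unadjusted p under 0.05, 3 were lower and 1 higher (14.3 percent), and none passed after adjustment. That share was 7.92 percent over all genes and 9.82 percent over protein-coding genes. Ifi27l2a had the highest value of the pathway list, 1.67 per the authors' deposited table (p = 0.00126), and missed the threshold with an adjusted p of 0.115. Gvin1, a very large inducible GTPase gene, stood at -1.09 per the authors' deposited table (p = 0.00379, adjusted p = 0.201). Ly6e, for a surface protein anchored in the membrane by a lipid (-0.66, p = 0.0358), and Cd274, which encodes the inhibitory ligand PD-L1 (-0.59, p = 0.0409), also stood lower per the authors' deposited table without passing.

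**Figure D5:**
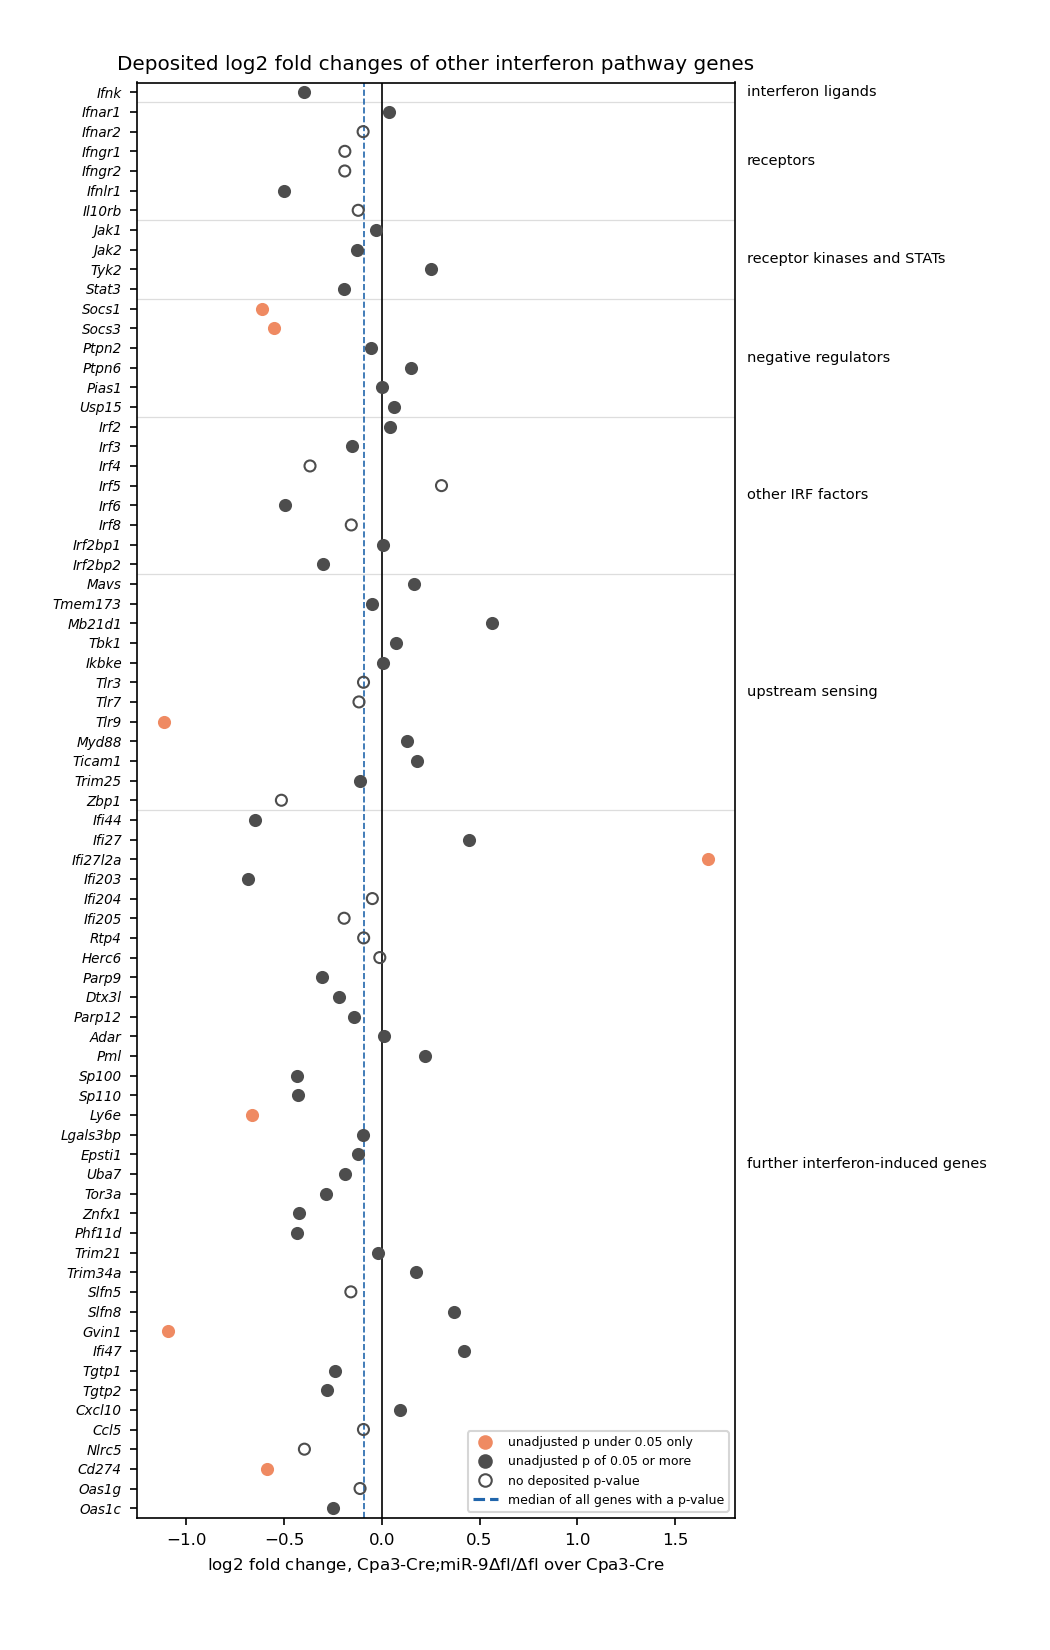
Deposited log2 fold change (x axis, the miR-9 line over Cpa3-Cre) of the 73 other interferon pathway genes found in the table (y axis), ordered by role. Open circles have no p-value and orange points an unadjusted p under 0.05; Ifi27l2a at 1.67 and Tlr9 at -1.12 mark the ends, and no gene passed after adjustment.

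Marker genes of cell types were read beside these values, since induced levels differ between cell types. The 6 mast cell markers, Kit and Fcer1a among them, had log2 fold changes from -0.06 to 0.42 per the authors' deposited table, and none passed. All 5 lymphocyte markers (Cd3e, Cd79a, Ncr1, Cd8a, Cd4) had negative values, from -0.67 to -0.34 per the authors' deposited table, and none passed. Over all tested genes 59.8 percent were negative. The 3 dendritic cell markers with a p-value ran from -0.65 to -0.30 and the 3 stromal markers from -0.70 to 0.01 per the authors' deposited table, and none passed. None of the 5 macrophage and monocyte markers found and none of the 4 neutrophil markers had a p-value. Over all gene models 5.78 percent lacked one, and over the members 23.1 percent did. Levels were not analysed, so the mast cell label could not be checked against them, and the part of other cells in these results was not tested.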

How the data were processed

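The deposited file for the 5 RNA-seq samples lists 25549 gene models. The submitters' processing notes name the builds GRCm38 and mm10 and the tools STAR, HTSeq, DESeq, DESeq2 and Cuffdiff, without roles or versions, and per the labels' design text DESeq2 gave the statistics. For each gene the authors deposited the log2 of the fold between the miR-9 line and Cpa3-Cre, that fold as a signed linear score, an unadjusted p-value and a summed exon length, per the file headers. Shrinkage of the log2 values, which would lessen the folds of scarce genes, and the use of strand in counting are not stated in the sources used here. Another 5 columns, 1 for each library, have names that no sample's labels match and were not used: values and depth per sample, standard errors and tests on counts were not analysed here, and the branch of the design for the authors' deposited p-values applied. The stated depth was about 70000000 reads per sample.

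The 24071 deposited p-values were adjusted by the Benjamini-Hochberg method (statsmodels 0.14.6, Python 3.11.15), and a gene was called at an adjusted p under 0.05. This step and the sequence searches were tested on simulated data. The 39 members and all lists were chosen with earlier results of these data known, so no list-level test was made. Every member is named; of the other pathway genes, those called, those with an unadjusted p under 0.05 and 9 receptor and signalling genes are named. A gene of the pathway list and one of the marker lists are not reported here and were left out of the counts. Apolipoprotein L and GBP genes were taken after their values were seen. All 39 members matched GENCODE M21 (GRCm38) by symbol and position. Transcripts and 3′ UTRs came from M21, and promoters and microRNAs from RefSeq (GRCm38.p6).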

Additional observations from a re-analysis of the deposited data

How the results depend on the processing

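The fall of Apol9b passed when p-values were adjusted over protein-coding genes only and with rows lacking a p-value entered as 1. Entering those rows raised its Benjamini-Hochberg adjusted p from 0.0268 to 0.0285. It also passed at the looser adjusted threshold of 0.10 (0.968 percent of all genes). That pass followed from the main result and adds no support. At the design text's unadjusted threshold of 0.0001 (0.299 percent of all genes) Apol9b passed too. Under Bonferroni adjustment 0 of the 30 members passed, and Apol9b had an adjusted p of 1. No other pathway gene passed under any of these 5 alternatives. Without members that have close relatives, 2 of 20 had an unadjusted p under 0.05 (Usp18 and Parp14), both lower. The median log2 fold change was -0.16 without those relatives, -0.21 as a mean, -0.07 after centring on protein-coding genes and, in an alternative chosen after seeing the data, -0.18 with rows lacking a p-value included. In the 150 bases before the start alone, 14 of 31 members held an ISRE core (45.2 percent, where 1.85 percent of all genes did). A GAS core was held by 6 (19.4 percent, where 4.77 percent of all genes did), down from 10 in the full window. No paired analysis was possible because the columns per library carry no names that match the labels; for the same reason the planned count filters, DESeq2 fit and leave-one-out fits were not run, and what depth limits is unknown.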
